A study of Mus musculus with 12 samples.

Results

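The transcripts described here encode the regulators of hepatic lipogenesis known as ChREBP, SREBP1 and LXR, with their DNA-binding partners. They were chosen by name, as the probe sets of a mouse expression array whose platform annotation carries the symbol of 1 of 8 genes: Mlxipl, Mlx, Mlxip, Srebf1, Nr1h3, Nr1h2, Usf1 and Usf2. Of the 8 genes, 7 had a probe set under their symbol, 11 probe sets in all among 45101 on the array. No probe set carried the symbol Nr1h2, and this gene is not analysed here. Tests were run across 18194 genes, each represented by its probe set with the highest mean over the 12 arrays.

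Liver RNA of mice of the strain SV129XC57Bl/6 was hybridised in 4 groups of 3 arrays. The groups were LG2KO mice treated with tamoxifen and refed after a fast, control mice refed after a fast, tamoxifen-treated LG2KO mice in the fasted state, and control mice in the fasted state. RNA of 3 animals was pooled for every array, which gives n = 3 per group throughout and a spread between pools, not between single animals. The labels do not spell out LG2KO, taken here to mean loss of the liver glucose transporter Glut2, which Slc2a2 encodes. The labels name neither the driver of the deletion nor the age of the mice. Tamoxifen is named for LG2KO mice and not for controls, and its effect cannot be told apart from that of the genotype. For LG2KO fasted arrays the source description reads fasted and refed, while title and diet label read fasted, which was used.

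Values are log2 expression from RMA, which subtracts background, equalises the distributions of the arrays and combines the probes of each set. A level is compared between arrays for 1 probe set and never between probe sets. In whole liver, fewer cells of a type and less RNA per cell cannot be told apart. The arrays read RNA, and the amount, processing and activity of proteins were not measured. Differences are log2 fold changes with their standard error, and a gene is said to have passed where limma's moderated test gave an adjusted p below 0.05 over all 18194 genes.

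Slc2a2, the gene read as deleted, had levels of 3.79, 3.64 and 3.80 in LG2KO refed livers, against 10.67, 11.30 and 10.90 in control refed livers. Levels were 4.02, 4.13 and 3.56 in LG2KO fasted livers, against 10.002, 11.08 and 10.82 in control fasted livers. Every LG2KO array lay far below every control array. Arrays of 1 group correlated at 0.984 to 0.996 over all probe sets, but control refed replicate 1 and LG2KO fasted replicate 3 stood apart from their groups, at 37.1 and -31.4 on the second principal component, where the other arrays ran between -11.4 and 7.46. Among markers of other tissues, the exocrine pancreas list averaged 8.47 in control fasted replicate 3 and 5.82 to 6.19 on the other arrays. Without these 3 arrays Srebf1 still passed for genotype in each feeding state and for refeeding in each genotype. The 4 measured adipose markers averaged 5.48 in LG2KO refed replicate 2 and 4.08 to 5.07 on the other arrays. Without that replicate Srebf1 still passed for genotype after refeeding and for refeeding in each genotype. The 5 measured lymphocyte and neutrophil markers averaged 6.68 in LG2KO refed replicate 3 and 5.47 to 6.32 on the other arrays. Without LG2KO refed replicate 3 Srebf1 passed in the same comparisons. The 7 measured hepatocyte markers averaged 13.5 to 13.7 on every array.

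As background, SREBP1 is made as a precursor bound to the endoplasmic reticulum, and its released amino-terminal part enters the nucleus and switches on genes of fatty acid synthesis. Insulin raises Srebf1 transcription in liver, and the nuclear receptor LXR, which senses oxysterols and pairs with RXR, is needed for much of this rise. ChREBP, encoded by Mlxipl, is activated by metabolites of glucose and binds carbohydrate response elements as a pair with Mlx, a protein that also partners MondoA, encoded by Mlxip. USF1 and USF2 bind E-boxes in promoters such as that of fatty acid synthase, whereas LXR with RXR binds spaced repeats of a nuclear receptor half-site.

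Promoter sequence is shown for Srebf1, the member that passed between genotypes, and for the ChREBP pair Mlxipl and Mlx. These windows were picked because they hold an E-box or an SRE-like element. The CCAAT box is marked as well, and it also occurs in windows that are not shown. The windows are the 250 bases before an annotated transcription start, from RefSeq on build GRCm38.p6, written 5′ to 3′ on the gene's strand. Capitals mark the E-box (CACGTG), the CCAAT box (CCAAT, or ATTGG where it lies on the other strand) and an SRE-like element (TCACCCNA).
Srebf1, start 3, chr11:60210472-60210721, minus strand: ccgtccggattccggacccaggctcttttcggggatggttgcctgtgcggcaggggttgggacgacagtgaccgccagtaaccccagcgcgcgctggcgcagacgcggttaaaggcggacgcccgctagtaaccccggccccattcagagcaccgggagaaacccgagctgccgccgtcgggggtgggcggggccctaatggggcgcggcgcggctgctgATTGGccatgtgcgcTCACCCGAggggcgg
Mlxipl, start 1, chr5:135089640-135089889, plus strand: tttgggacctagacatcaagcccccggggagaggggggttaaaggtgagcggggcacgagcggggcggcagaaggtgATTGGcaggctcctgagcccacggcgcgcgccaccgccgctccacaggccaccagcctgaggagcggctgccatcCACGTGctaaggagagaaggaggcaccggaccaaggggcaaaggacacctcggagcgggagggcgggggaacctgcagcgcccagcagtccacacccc
Mlx, chr11:101087040-101087289, plus strand: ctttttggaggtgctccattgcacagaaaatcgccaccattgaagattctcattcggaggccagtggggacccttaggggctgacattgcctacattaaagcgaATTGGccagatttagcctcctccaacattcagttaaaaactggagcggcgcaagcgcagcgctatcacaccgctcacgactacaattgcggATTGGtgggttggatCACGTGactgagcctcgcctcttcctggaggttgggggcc
In the Srebf1 window the CCAAT box began 30 bases before the start, with the SRE-like element 15 bases before it. In the Mlxipl window an E-box began 98 bases before the start and a CCAAT box 173 bases before it. The Mlx window held an E-box 40 bases before the start and CCAAT boxes at 55 and 146 bases. Both strands were searched, and the share of 32851 mouse promoter windows with at least 1 match was 6.02% for the E-box, 33.8% for the CCAAT box and 3.24% for the SRE-like element. The letters were chosen after these promoters had been read, so a match is a description and no evidence of a site. Usf2 is named only. Over the 12 windows of the 7 genes with an entry (Nr1h2 included), 3 other patterns had no match in any window: the nuclear receptor half-site AGGTCA (14% of all windows), 2 such half-sites spaced by 4 bases (0.0152%) and a loose carbohydrate response element CANGNGNNNNNCNCNTG (0.454%). Sites that depart from the letters searched would be missed, so the lack of a match is no evidence that a site is absent. The other 2 Srebf1 windows held a CCAAT box or no match, and no isoform is assigned to a start here.

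Srebf1 (chr11:60199084-60224186), which encodes SREBP1, was read by 1 probe set, 1426690_a_at. This probe set reads transcripts of the gene jointly, so SREBP1a and SREBP1c cannot be told apart. Its levels were 12.84, 13.06 and 12.84 in LG2KO refed livers and 12.25, 11.89 and 11.92 in control refed livers. They were 11.28, 11.23 and 11.28 in LG2KO fasted livers and 10.51, 10.75 and 10.67 in control fasted livers. The 4 groups did not overlap at any point, with LG2KO refed livers highest, then control refed, LG2KO fasted and control fasted livers.

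Each step in that order passed the test. LG2KO refed livers exceeded control refed livers by 0.89 ± 0.10 (SE), which is 1.86-fold (95% interval 1.59 to 2.16; adjusted p = 0.00499). LG2KO fasted livers lay below control refed livers, with a difference of -0.75 ± 0.10 (adjusted p = 0.000553), in a comparison that passed 8.2% of all genes. LG2KO fasted livers exceeded control fasted livers by 0.62 ± 0.10, or 1.54-fold (1.32 to 1.79; adjusted p = 0.0184). The fasted call was lost without any 1 of the fasted pools other than control fasted replicate 2, at differences of 0.56 to 0.64 and adjusted p between 0.0756 and 0.0832. Without that replicate it still passed, at 0.68.

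Refeeding raised Srebf1 in both genotypes. The difference was 1.65 ± 0.10 in LG2KO livers, or 3.13-fold (2.69 to 3.65; adjusted p = 3.13e-06), and 1.38 ± 0.10 in control livers, or 2.60-fold (2.23 to 3.03; adjusted p = 7.59e-06). The interaction of genotype and feeding was 0.27 ± 0.14, with a 95% interval of -0.04 to 0.58 and an adjusted p of 0.99, so a larger refeeding rise in LG2KO livers was not shown. Averaged over both feeding states, the genotype difference was 0.76 ± 0.07 (adjusted p = 0.000382).

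**Figure D1:**
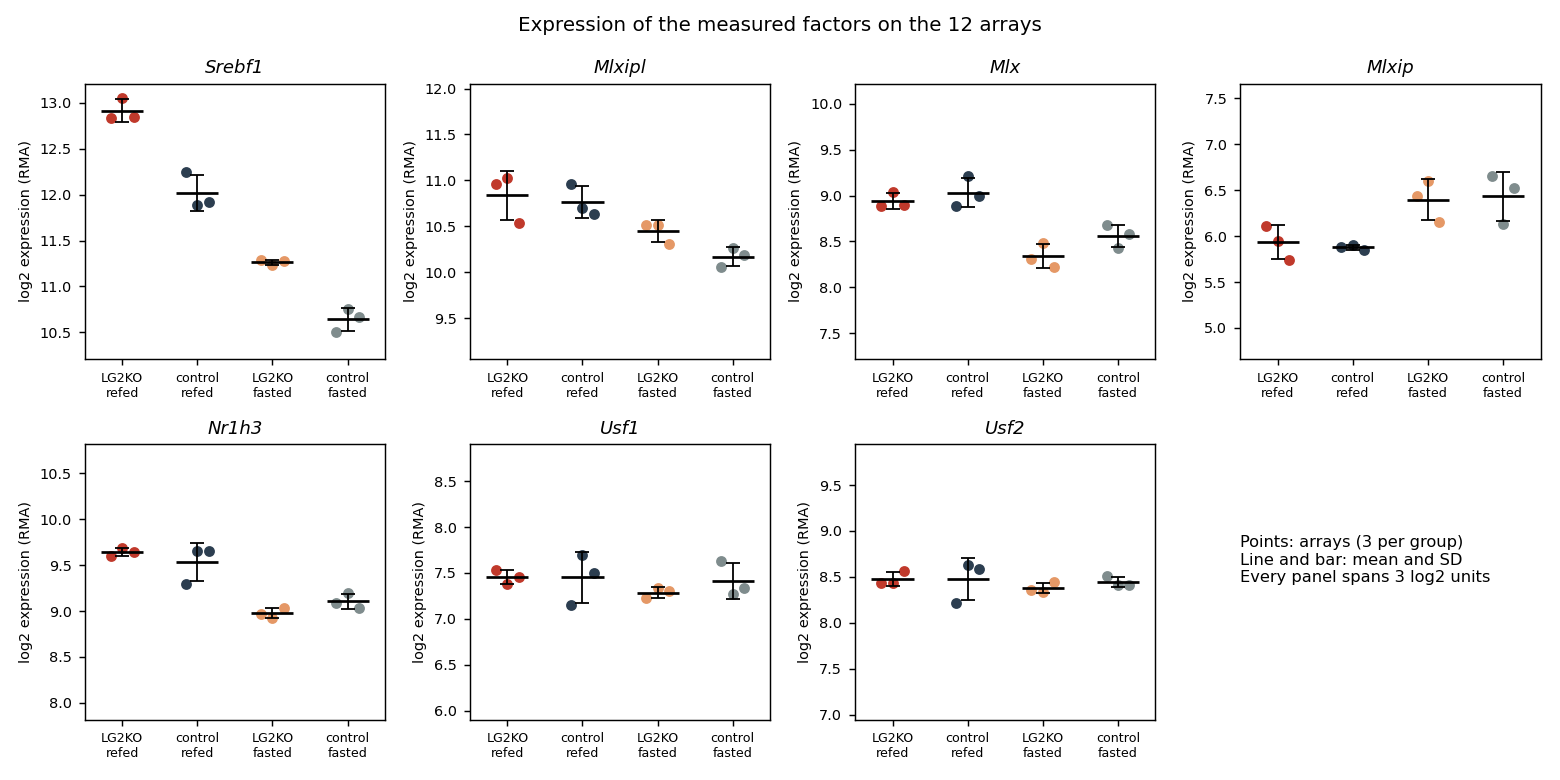
Log2 expression (RMA) of the 7 measured genes on the 12 arrays, by group; points are arrays, the line is the mean and the bar the SD of 3 pools, and every panel spans 3 log2 units. Srebf1 falls into 4 separate groups between 10.51 and 13.06, while the panels of Usf1 and Usf2 overlap in every group but the LG2KO refed and LG2KO fasted arrays of Usf1.

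Mlxipl (chr5:135089890-135139768), which encodes ChREBP, had levels of 10.96, 11.03 and 10.53 in LG2KO refed livers and 10.96, 10.70 and 10.63 in control refed livers. They were 10.52, 10.51 and 10.31 in LG2KO fasted livers and 10.06, 10.26 and 10.19 in control fasted livers. Refed groups overlapped each other, LG2KO fasted arrays lay above every control fasted array, and the lowest LG2KO refed array barely exceeded the highest LG2KO fasted one.

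For Mlxipl, refeeding gave 0.60 ± 0.13 in control livers, or 1.51-fold (1.24 to 1.84; adjusted p = 0.0169). In LG2KO livers the refeeding difference was 0.39 ± 0.13, which did not pass (adjusted p = 0.105). The interaction was -0.20 ± 0.19 (adjusted p = 0.99), so the 2 genotypes were not shown to differ in this response. LG2KO minus control was 0.28 ± 0.13 in the fasted state (adjusted p = 0.984) and 0.08 ± 0.13 in the refed state (adjusted p = 0.902). The control call rested on the fasted pools: without control fasted replicate 1 the adjusted p was 0.0774 and without replicate 3 it was 0.0511, and without replicate 3 and both arrays that stood apart it was 0.0594, while without LG2KO refed replicate 3 the LG2KO difference was 0.55 and passed (adjusted p = 0.0226).

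Mlx (chr11:101086707-101092207), the obligate partner of ChREBP on DNA, had levels of 8.88, 9.04 and 8.90 in LG2KO refed livers and 8.89, 9.21 and 8.998 in control refed livers. They were 8.31, 8.48 and 8.22 in LG2KO fasted livers and 8.67, 8.43 and 8.58 in control fasted livers. Refed arrays lay above fasted arrays in both genotypes, and the genotypes overlapped in each feeding state.

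Refeeding raised Mlx by 0.60 ± 0.11 in LG2KO livers (adjusted p = 0.00688) and by 0.47 ± 0.11 in control livers (adjusted p = 0.0277). The control call was lost without control refed replicate 2 (0.38, adjusted p = 0.121), control refed replicate 3 (0.49, 0.0722), control fasted replicate 2 (0.41, 0.124) or control fasted replicate 3 (0.48, 0.077). A second Mlx probe set, 1418437_a_at, had smaller differences, 0.29 ± 0.09 in LG2KO livers (adjusted p = 0.113) and 0.33 ± 0.09 in control livers (adjusted p = 0.0703), and passed in neither. LG2KO minus control for the first probe set was -0.09 ± 0.11 in the refed and -0.22 ± 0.11 in the fasted state, with adjusted p of 0.86 and above 0.99.

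Mlxip (chr5:123394521-123457932), encoding MondoA, the relative of ChREBP that pairs with Mlx mainly in muscle, ran the other way. Its levels were 6.11, 5.95 and 5.74 in LG2KO refed livers and 5.88, 5.91 and 5.85 in control refed livers. They were 6.44, 6.60 and 6.16 in LG2KO fasted livers and 6.65, 6.14 and 6.52 in control fasted livers. Every refed array was below every fasted array of its genotype.

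The refeeding difference of Mlxip was -0.46 ± 0.16 in LG2KO livers (adjusted p = 0.116) and -0.56 ± 0.16 in control livers (adjusted p = 0.0588), neither of which passed. Without LG2KO fasted replicate 3 both passed, at -0.58 (adjusted p = 0.0463) in LG2KO livers and -0.56 (adjusted p = 0.0371) in control livers, and without control fasted replicate 2 the control value was -0.71 (adjusted p = 0.0281). Its genotype differences were 0.06 ± 0.16 in the refed and -0.04 ± 0.16 in the fasted state.

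Nr1h3 (chr2:91184061-91202829) encodes LXRα, the form of the receptor most abundant in liver. Its levels were 9.60, 9.69 and 9.65 in LG2KO refed livers and 9.30, 9.65 and 9.66 in control refed livers. They were 8.97, 8.92 and 9.04 in LG2KO fasted livers and 9.09, 9.20 and 9.04 in control fasted livers. Refed arrays were above fasted arrays in both genotypes, and LG2KO fasted arrays lay just below control fasted ones without overlap.

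Refeeding raised Nr1h3 by 0.67 ± 0.10 in LG2KO livers, or 1.59-fold (1.36 to 1.86; adjusted p = 0.00213). In control livers it raised Nr1h3 by 0.43 ± 0.10, or 1.34-fold (1.15 to 1.57; adjusted p = 0.0294), a call that was lost without any 1 of the control pools other than control refed replicate 1, with adjusted p between 0.0548 and 0.127. The interaction was 0.24 ± 0.15 (95% interval -0.08 to 0.56; adjusted p = 0.99). LG2KO minus control was 0.11 ± 0.10 in the refed state (adjusted p = 0.812) and -0.13 ± 0.10 in the fasted state (adjusted p above 0.99); without control refed replicate 1 the refed value was -0.01.

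Usf1 (chr1:171411307-171418954) and Usf2 (chr7:30945248-30956951), the E-box factors, showed little difference in their highest probe sets. Usf1 levels were 7.53, 7.38 and 7.45 in LG2KO refed livers and 7.16, 7.70 and 7.50 in control refed livers. They were 7.22, 7.33 and 7.30 in LG2KO fasted livers and 7.63, 7.27 and 7.34 in control fasted livers. LG2KO refed arrays lay just above LG2KO fasted ones, and the other groups overlapped. Its 4 differences between genotypes or feeding states ran from -0.13 to 0.17 and none passed (adjusted p 0.666 or higher). The 2 other Usf1 probe sets did not pass either, and 1 of them, 1459758_at, lay between the 15.4th and the 23.0th percentile of its arrays, close to the dim end.

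The 2 Usf2 probe sets disagreed. The one with the higher mean, 1418241_at, had refeeding differences of 0.09 ± 0.11 in LG2KO livers and 0.03 ± 0.11 in control livers. The other, 1460228_at, had levels of 8.18, 8.17 and 8.25 in LG2KO refed livers and 8.11, 8.28 and 8.15 in control refed livers. It had 8.58, 8.63 and 8.73 in LG2KO fasted livers and 8.70, 8.53 and 8.59 in control fasted livers, all above the refed arrays. In limma's fit over 34958 probe sets it fell by 0.44 ± 0.09 on the log2 scale with refeeding in LG2KO livers (adjusted p = 0.0166), where 5.03% of probe sets passed, and fell by 0.43 ± 0.09 in control livers (adjusted p = 0.0196), where 4.79% passed. The transcripts behind this disagreement were not tested.

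**Figure D2:**
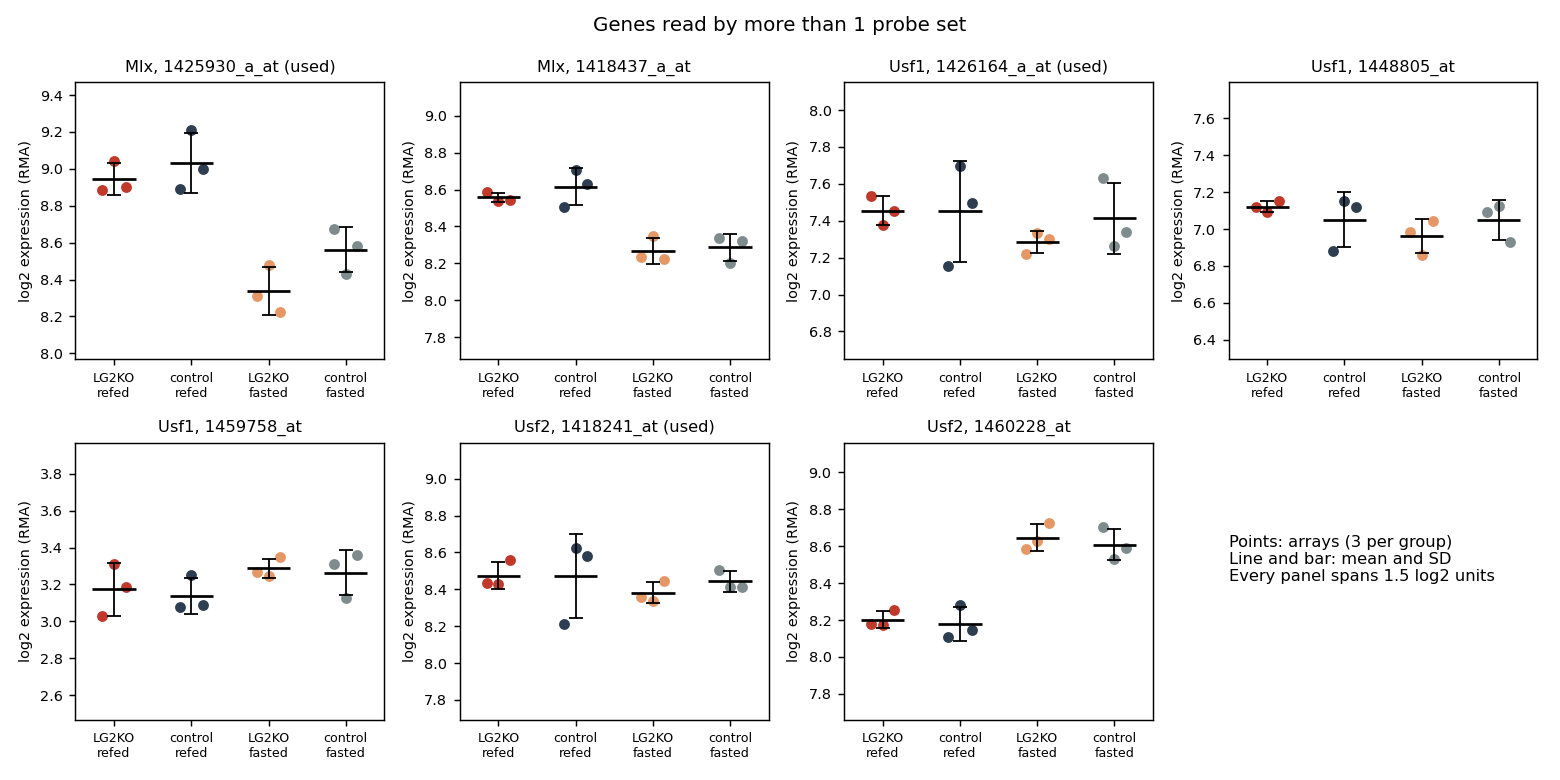
Log2 expression (RMA) of every probe set of Mlx, Usf1 and Usf2 by group; points are arrays, the line is the mean and the bar the SD of 3 pools, and every panel spans 1.5 log2 units. Usf2 1460228_at separates refed arrays (8.11 to 8.28) from fasted arrays (8.53 to 8.73), which Usf2 1418241_at does not.

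Over the 7 measured genes, 1 passed between LG2KO and control livers after refeeding and 1 in the fasted state, Srebf1 each time. Among all genes 0.379% passed after refeeding, 0.291% as higher, and 0.396% passed in the fasted state, 0.308% as higher. Groups of arrays did not overlap for 1 of 7 after refeeding, against 15.4% of all genes, and for 3 of 7 in the fasted state (Srebf1, Mlxipl and Nr1h3), against 10.8%.

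With refeeding, 3 of 7 rose in LG2KO livers (Srebf1, Mlx and Nr1h3), where 7.05% of all genes passed and 4.66% passed as higher. In control livers 4 of 7 rose (those 3 and Mlxipl), where 6.46% of all genes passed and 3.29% passed as higher. Groups did not overlap for 6 of 7 genes in LG2KO livers, against 22.5% of all genes, and for 5 of 7 in control livers, against 20.5%. None of the 7 passed the interaction, which 1 gene of 18194 did (0.0055%; 861 genes had an unadjusted p below 0.05), and 1 of 7 passed for genotype averaged over feeding, against 1.02%.

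Ordered by level, the groups of the other members were less finely separated than those of Srebf1. For Mlxipl no neighbouring pair in the order LG2KO refed, control refed, LG2KO fasted, control fasted passed (adjusted p from 0.202 to 0.984). For Nr1h3 the step that passed was control refed over control fasted, and for Mlx the corresponding step, LG2KO refed over control fasted, was 0.38 ± 0.11 and did not pass (adjusted p = 0.0702; 6.96% of all genes passed there). No neighbouring groups of Mlxip, Usf1 or Usf2 passed. These comparisons share arrays and are given side by side as separate values.

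**Figure D3:**
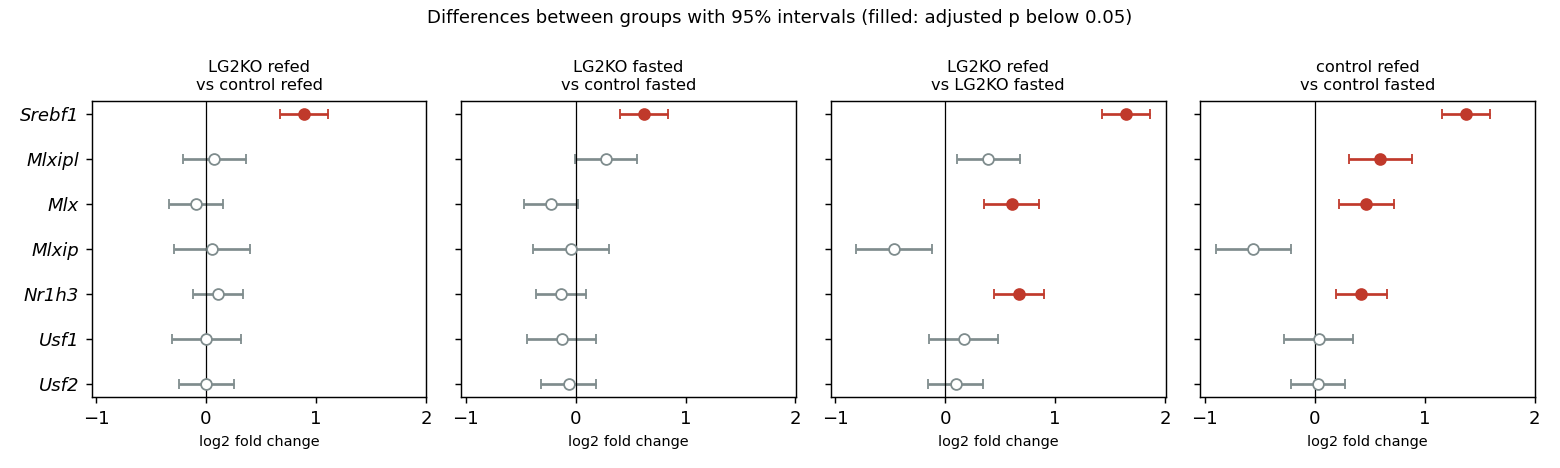
Log2 fold changes of the 7 genes in the 4 comparisons with 95% intervals from limma; filled red points have an adjusted p below 0.05. Srebf1 passes in all 4 panels, Mlx and Nr1h3 in both refeeding panels, and Mlxipl in the control refeeding panel.

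Genes known as targets of the factors were read from lists drawn up by textbook role, with earlier results of these data known. The counts below describe these lists and are no independent test. Many of the genes answer to more than 1 of the factors. Where a small share of all genes passed, a count of 0 says little about lists this short. Fasted LG2KO livers had higher levels than control fasted livers for 6 of 15 measured ChREBP-linked genes, 7 of 15 SREBP1-linked lipogenic genes and 0 of 12 LXR-linked genes, where 0.308% of all genes were higher, and none of the lists' genes was lower. Averaged over feeding, where 1.02% of all genes passed in either direction, 9 of 15, 7 of 15 and 0 of 12 were higher and 1 SREBP1-linked gene, Fads1, was lower. The averaged medians were 0.49, 0.52 and 0.03, against 0.01 for all genes. In the fasted state the medians of the lists were 0.54, 0.45 and 0.02, against -0.00 for all genes. After refeeding, LG2KO exceeded control livers for 2 of 15, 0 of 15 and 0 of 12, where 0.291% of all genes were higher, with list medians of 0.27, 0.05 and 0.05 against 0.02 for all genes.

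Among ChREBP-linked genes, Pklr, the liver form of pyruvate kinase, had levels of 10.71, 10.70 and 10.91 in LG2KO fasted livers, against 8.82, 8.73 and 9.02 in control fasted livers. The difference was 1.92 ± 0.12 (adjusted p = 7.41e-06), while in refed livers it was 0.17 ± 0.12 (adjusted p = 0.714). Refeeding lowered Pklr in LG2KO livers, by -0.82 ± 0.12 (adjusted p = 0.000982), and raised it in control livers, by 0.92 ± 0.12 (adjusted p = 0.000387). Pklr was the 1 gene of the array that passed the interaction, at -1.75 ± 0.16 (adjusted p = 0.0024).

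Khk, which phosphorylates fructose, was higher in LG2KO livers in both states, by 0.61 ± 0.08 after refeeding (adjusted p = 0.0128) and 1.001 ± 0.08 in the fasted state (adjusted p = 0.000152). Tkfc, which acts on the triose made from fructose, was higher in fasted LG2KO livers by 1.59 ± 0.13, and G6pc, the glucose-releasing phosphatase, by 1.19 ± 0.15 (adjusted p = 0.000152 and 0.00342). Pnpla3, a lipase-like protein of lipid droplets, was higher in refed LG2KO livers by 1.03 ± 0.15 (adjusted p = 0.0167). The count of 2 ChREBP-linked genes in refed livers was 1 without control refed replicate 2 or LG2KO refed replicate 1, and 0 without LG2KO refed replicate 3.

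In LG2KO livers 1 of 15 ChREBP-linked genes rose with refeeding, near the share of all genes that rose (4.66%). In the same livers 6 of the 15 fell, where 2.4% of all genes fell, and the list median was -0.46. Txnip, which restrains glucose uptake, fell by 1.003 ± 0.13 on the log2 scale (adjusted p = 0.000569) and G6pc fell by 1.05 ± 0.15 (adjusted p = 0.00117), while Pnpla3 rose by 0.92 ± 0.15. In control livers 3 rose (Pklr, Tkfc and Tkt), where 3.29% of all genes rose. A further 2 fell (Txnip and its relative Arrdc4), where 3.17% of all genes fell, and the list median was 0.11. Without any 1 of 4 control pools (control refed replicates 2 and 3, control fasted replicates 1 and 2) 1 of these falls was left.

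SREBP1-linked genes that were higher in fasted LG2KO livers included Fasn, fatty acid synthase, whose levels were 10.09, 10.32 and 10.33 in LG2KO fasted livers, against 9.05, 9.09 and 8.80 in control fasted livers. The difference was 1.27 ± 0.16 (adjusted p = 0.00287). Mid1ip1, which promotes polymerisation of acetyl-CoA carboxylase, differed by 1.08 ± 0.10 (adjusted p = 0.000369), Me1, the NADPH-forming malic enzyme, by 1.22 ± 0.12 (adjusted p = 0.000652), and Acaca, acetyl-CoA carboxylase itself, by 1.04 ± 0.11 (adjusted p = 0.00142). In refed livers Fasn differed by 0.27 ± 0.16 (adjusted p = 0.661) and none of the 15 passed, while 1 did without control refed replicate 1. Scd1, the stearoyl-CoA desaturase, did not pass in either state, at 0.46 ± 0.16 refed and 0.35 ± 0.16 fasted. The 8 genes of the list that did not pass in the fasted state, Scd1 among them, had differences from -0.60 to 0.45.

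With refeeding, 2 of the 15 SREBP1-linked genes rose in LG2KO livers, where 4.66% of all genes rose, and 7 in control livers, where 3.29% rose, and none of the 15 fell. Both genes of the first count are among the 7 of the second: Fasn, at 1.65 ± 0.16 in LG2KO and 2.64 ± 0.16 in control livers, and Mid1ip1, at 1.33 ± 0.10 and 2.24 ± 0.10. Elovl6, an elongase of long-chain fatty acids, rose by 2.21 ± 0.27 in control livers (adjusted p = 0.000329) and Acly, which makes cytosolic acetyl-CoA, by 1.16 ± 0.13 (adjusted p = 0.000206). None of the 15 passed the interaction. The smallest adjusted p was 0.13, for Acly at -1.23 ± 0.19 and Mid1ip1 at -0.91 ± 0.14, while Elovl6 had -1.93 ± 0.38 (adjusted p = 0.265) and Fasn -0.995 ± 0.22 (adjusted p = 0.409). The list's interaction median was -0.37, against 0.02 for all genes. The refeeding medians were 0.24 in LG2KO and 0.46 in control livers, against 0.01 and -0.01 for all genes. Without control refed replicate 1, 1 gene of the list fell in control livers.

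With refeeding, 5 of 12 LXR-linked genes fell in LG2KO livers, where 2.4% of all genes fell, and 4 of 12 fell in control livers, where 3.17% fell, while Nr1h3 itself rose. The other 7 and 8 did not pass, and none of the 12 rose. Srebf1, named above as partly dependent on LXR, was not on this list and rose in both genotypes. The list medians were -0.53 in LG2KO and -0.42 in control livers, against 0.01 and -0.01 for all genes. Abcg5 and Abcg8, the paired exporters of cholesterol into bile, were among the genes that fell in both genotypes. Abcg5 levels were 9.89, 9.72 and 9.43 in LG2KO refed livers, against 10.64, 10.65 and 10.32 in LG2KO fasted livers, and 9.46, 9.23 and 9.29 in control refed livers, against 10.37, 10.29 and 10.64 in control fasted livers. Refed and fasted arrays did not overlap in either genotype, and Abcg5 fell with refeeding, by -0.85 ± 0.14 in LG2KO (adjusted p = 0.00258) and by -1.11 ± 0.14 in control livers (adjusted p = 0.000387). The LG2KO count was 3 without LG2KO refed replicate 2, and the control count was 7 without both arrays that stood apart.

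**Figure D4:**
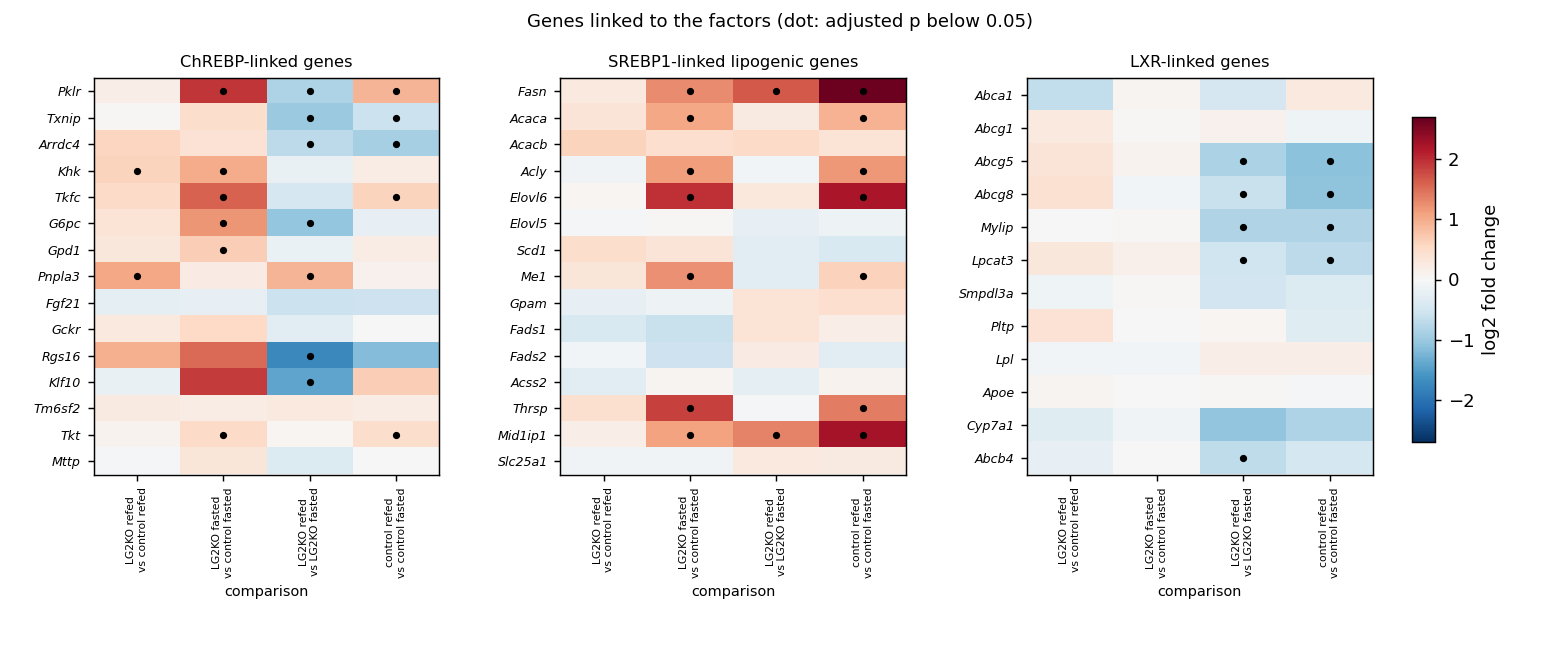
Log2 fold change (colour) of the measured genes of the 3 target lists, in rows, over 4 comparisons, in columns; a dot marks an adjusted p below 0.05 in limma. In the column of LG2KO fasted against control fasted livers 6 ChREBP-linked, 7 SREBP1-linked and 0 LXR-linked genes carry a dot.

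Upstream of SREBP1, 14 genes of SREBP processing and turnover were measured. None passed between genotypes after refeeding, where 0.379% of all genes passed, or in the fasted state, where 0.396% passed. At such shares the absence of calls says little about a list this short, here and in the lists of regulators below. Averaged over feeding, where 1.02% of all genes passed, Lpin1 was higher in LG2KO livers, by 0.63 ± 0.13 (adjusted p = 0.0425). Insig1, which holds the SREBP precursor in the endoplasmic reticulum and is itself induced by SREBP, had levels of 10.42, 9.96 and 10.23 in LG2KO refed livers and 10.88, 10.86 and 10.70 in control refed livers. They were 8.27, 8.34 and 7.38 in LG2KO fasted livers and 8.54, 9.22 and 8.89 in control fasted livers. LG2KO arrays lay below control arrays in both states, but the genotype difference averaged over feeding, -0.75 ± 0.17, did not pass (adjusted p = 0.0605).

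Refeeding raised Insig1 by 2.21 ± 0.23 in LG2KO livers (adjusted p = 0.00014) and by 1.93 ± 0.23 in control livers (adjusted p = 0.000333). Lpin1, a phosphatidate phosphatase that can restrain nuclear SREBP, fell by 2.15 ± 0.18 in LG2KO livers and fell by 1.53 ± 0.18 in control livers (adjusted p = 2.81e-05 and 3e-04). Insig2, the second Insig gene, did not pass, at -0.39 ± 0.14 and -0.20 ± 0.14. Srebf2, the paralogue that drives cholesterol synthesis, rose by 0.60 ± 0.13 in LG2KO livers (adjusted p = 0.016) and by 0.53 ± 0.13 in control livers (adjusted p = 0.0311), and its genotype differences of -0.14 ± 0.13 refed and -0.21 ± 0.13 fasted did not pass.

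Of 15 measured LXR partners and coregulators, none passed between genotypes, where 0.379% of all genes passed after refeeding and 0.396% in the fasted state. Nr0b2, the small heterodimer partner that represses other receptors, rose by 1.38 ± 0.22 with refeeding in LG2KO livers (adjusted p = 0.00203) and had 0.65 ± 0.22 in control livers, which did not pass (adjusted p = 0.106). Ppargc1b, a coactivator of SREBP1 and LXR, fell by 0.74 ± 0.13 and fell by 1.01 ± 0.13 (adjusted p = 0.00392 in LG2KO and 0.000412 in control livers). Rxra, the partner of LXR, had 0.06 ± 0.08 and -0.24 ± 0.08 and passed in neither.

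Of 17 measured regulators and cofactors of ChREBP, none passed between genotypes, against 0.379% of all genes after refeeding and 0.396% in the fasted state. Foxo1, a forkhead factor restrained by insulin, fell by 0.81 ± 0.13 with refeeding in LG2KO livers and fell by 0.75 ± 0.13 in control livers (adjusted p = 0.00255 and 0.00365). Hnf4a, a hepatocyte factor, fell by 0.31 ± 0.08 in control livers (adjusted p = 0.0399).

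Of 16 related E-box factors, 2 passed between genotypes in the fasted state, both higher in LG2KO livers, where 0.308% of all genes were higher, and none passed in the refed state. Bhlhe40, a repressor in the circadian clock, had levels of 10.28, 10.34 and 10.32 in LG2KO fasted livers, against 9.57, 9.62 and 9.66 in control fasted livers. The groups did not overlap, and the difference was 0.70 ± 0.13 (adjusted p = 0.0358). Bhlhe40 rose with refeeding in control livers by 1.01 ± 0.13 (adjusted p = 0.000387) and had 0.20 ± 0.13 in LG2KO livers (adjusted p = 0.507), a contrast that did not pass the interaction (-0.82 ± 0.18, adjusted p = 0.409). Mycl, a member of the Myc family, was higher in fasted LG2KO livers by 0.95 ± 0.16 (adjusted p = 0.0263) and fell with refeeding in both genotypes.

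Of 14 measured genes of insulin signalling, the pathway that raises Srebf1, none passed between genotypes. Among all genes 0.379% passed after refeeding and 0.396% in the fasted state, and activity of the pathway was not measured. With refeeding, 3 rose and 3 fell in LG2KO livers, where 4.66% of all genes rose and 2.4% fell, and 2 fell in control livers, where 3.17% fell. Akt1, a kinase of the pathway, rose by 0.58 ± 0.09 (adjusted p = 0.00193) and Insr, the insulin receptor, fell by 1.39 ± 0.26 (adjusted p = 0.00676) in LG2KO livers. Irs2, a docking protein of the receptor, fell by 0.98 ± 0.19 (adjusted p = 0.00729) and Pck1, the gluconeogenic carboxykinase, fell by 0.72 ± 0.16 (adjusted p = 0.0153) in control livers.

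The genes with the profile most like each of the 4 members that passed were sought among 8843 genes above the median level, by the root mean square difference of profiles centred on their own mean over the 12 arrays. This is a description with no test, since the 12 arrays share the 4 conditions. For Srebf1 they were Gnat2, Nans, Dynll1, Tubb6 and Tmed3, with differences of 0.213 to 0.295 against a root mean square of 0.856 for Srebf1 itself. Nans, an enzyme of sialic acid synthesis, passed in the same 4 comparisons as Srebf1, at 0.72 ± 0.11 after refeeding and 0.72 ± 0.11 in the fasted state for LG2KO against control livers, and for refeeding at 1.12 ± 0.11 in LG2KO and in control livers. Dynll1, a dynein light chain, also passed in all 4.

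For Mlxipl the nearest profiles were Spcs2, Sec22b, Sec11c, Snd1 and Stt3a, at 0.105 to 0.142 against 0.304 for Mlxipl itself. Spcs2 and Sec11c encode subunits of the signal peptidase, Sec22b a vesicle fusion protein and Stt3a an oligosaccharyltransferase subunit. For Mlx they were Cars, Pcnx4, Rtp3, Ccdc51 and Rnf121 (0.075 to 0.086 against 0.301), and for Nr1h3 they were Cdc34, Dbnl, Alkbh7, Scly and Dhrs11 (0.046 to 0.067 against 0.296). Ranked by Pearson correlation instead, Srebf1 was nearest to Sec61a1 (r = 0.989), Mlxipl again to Spcs2 (0.939), Mlx to Pcnx4 (0.975) and Nr1h3 to Golt1b (0.99).

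**Figure D5:**
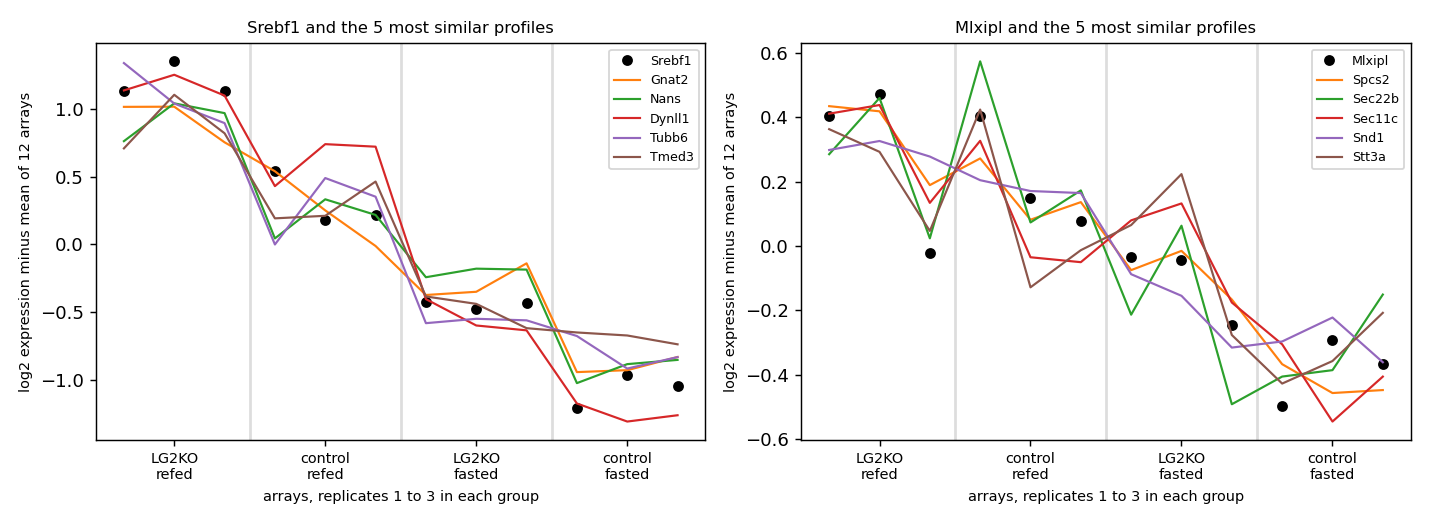
Log2 expression minus its mean over 12 arrays for Srebf1 and Mlxipl (points) and the 5 genes with the most similar profile (lines), arrays ordered by group and replicate. The Srebf1 lines step down from LG2KO refed to control fasted arrays, and Tubb6 and Tmed3 differ least between the fasted groups (0.24 and 0.21).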

How the data were processed

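Per the labels' protocols, liver RNA was extracted, pooled from 3 animals per array, biotin-labelled and hybridised to 12 arrays. The deposited values are log2 expression, 1 per probe set and array, made by the authors with RMA per the submitters' processing notes; the sources used here give no software, version or build. Of 45101 probe sets, 34958 had 1 symbol in the platform's annotation, 932 had several and 9211 were not listed, and both of the last were left out. Gene positions and promoter sequences are RefSeq's, on GRCm38.p6.

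Differences were fitted with limma 3.58.1 in R 4.3.3 (lmFit, eBayes with an intensity trend, 4 group means, 8 residual degrees of freedom), two-sided, with Benjamini-Hochberg adjustment over all 18194 genes within each comparison; a separate fit covered every probe set. No dim genes were filtered. The p-values measure the spread between pools, and 3 arrays per group limit precision. The fit was tested on simulated data. Figures used matplotlib 3.10.9 in Python 3.11.15.

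The members, the 8 gene lists (127 genes, 118 measured), the arrays said to stand apart and the alternatives were chosen with earlier results of these data known. Motif letters were chosen after the members' promoters had been read; 6 patterns were searched. Named are all members, Slc2a2, up to 4 passing genes per list and comparison with the smallest adjusted p, a set of genes named whether or not they passed (1 of them is not reported here), and the 5 nearest profiles. Fads1, Txnip in control refeeding, and the first genes by Pearson correlation were named outside this rule, after their values were seen. Deviations of same-numbered arrays of different groups correlated above 0.1 in 6 of 18 pairs (range -0.46 to 0.77), and in no pair of groups for all 3 numbers, so numbers were not taken as pairs. Alternatives were prior and weighting choices, a dim-gene filter, fewer groups, left-out arrays, a replicate block, other probe set rules and scalings.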

Additional observations from a re-analysis of the deposited data

Results flagged for a closer look

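Pklr, the liver pyruvate kinase gene and a known ChREBP target, differed in its refeeding response between the genotypes by the interaction test in limma, at -1.75 ± 0.16 on the log2 scale (adjusted p = 0.0024). Its refeeding difference was -0.82 ± 0.12 in LG2KO livers and 0.92 ± 0.12 in control livers. Its levels were 9.83, 9.97 and 10.05 in LG2KO refed livers and 9.57, 9.92 and 9.85 in control refed livers, where the groups overlapped. With 3 arrays per group, single arrays were not tested as outliers.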

How the results depend on the processing

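Of 994 member values over 24 settings (1 of them added after the data were seen), 21 lost and 12 gained a call, 54 took the opposite sign, and none of these 54 passed in either fit. The Srebf1 difference after refeeding (0.82 to 1.01) and its refeeding differences passed in all 24 settings, as did the LG2KO refeeding rises of Mlx and Nr1h3. In the fasted state the Srebf1 call held in 18 of 24, Mlxipl in control refeeding in 21, Mlx in 19 and Nr1h3 in 17; causes were not tested. Centring or quantile scaling moved the all-gene median by under 0.1.

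Genes passing between genotypes after refeeding (69) were 41 without the trend, 43 with robust eBayes and 180 with array weights. They were 15 with the compared groups alone, and 44 without the arrays that stand apart and control fasted replicate 3. Without 1 array they were 8 to 47, the lowest without LG2KO refed replicate 3. In the fasted state (72) they were 203 with weights, 44 with the compared groups alone and 30 to 97 without 1 array; members there were 0 without the trend and 0 to 1 without 1 array. For refeeding in LG2KO livers (1283) they were 3578 with weights (5 members), 3187 without the arrays that stand apart, 3199 without those and control fasted replicate 3, and 697 to 1803 without 1 array. For refeeding in control livers (1176) they were 2454 with weights, 695 with the compared groups alone (2 members), 2202 without the arrays that stand apart, 1684 without those and control fasted replicate 3, and 706 to 1467 without 1 array (1 to 5 members). For the interaction (1) they were 2 with robust eBayes, 20 with weights, 3 over probe sets and 1 to 2 without 1 array. For genotype averaged over feeding (185) they were 122 without the trend, 443 with weights, 216 without the 3 arrays and 88 to 207 without 1 array.

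With the replicate number as a block the interaction passed 6 genes, and no member call changed in any comparison. The numbers are not shown to pair the arrays. With 3 pools per group, and dim probe sets such as Usf1 1459758_at, small differences were not detectable.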
